A study of Homo sapiens with 12 samples.

Results

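MALAT1, NEAT1 and TALAM1 are long RNAs that do not code for protein and stay in the nucleus, and all are transcribed from the same stretch of the long arm of chromosome 11. The set was chosen by gene symbol, as 3 of the 41878 rows of the deposited count table. MALAT1 and NEAT1 were named for what they are. TALAM1 was picked on its measured counts, which were near absent in some libraries, so its values are given below as a description with no test and are set beside those of its antisense partner MALAT1. All 3 rows passed the filter on low counts that left 18030 genes for testing, TALAM1 through the few libraries in which it was counted.

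The libraries came from HEK293T, a human embryonic kidney cell line that carries the SV40 large T antigen. The Effectene reagent carried 1 µg of plasmid into the cells, which was the control vector in one arm and TRPML3 in the other. TRPML3 is a channel for cations in the membranes of endosomes and lysosomes, and its gene is MCOLN3. Before the RNA was taken, serum stayed at 10% in the fed cells and was at 0% for 4 h in the starved cells. The 4 groups were thus vector fed, vector starved, TRPML3 fed and TRPML3 starved, each with 3 libraries that the labels describe as biological triplicates. All groups share the cell line and the transfection, and no untransfected cells were analysed here. RNA carrying a poly(A) tail was enriched before library preparation with the KAPA hyper prep kit, so a level here is that of RNA recovered by that step. In such bulk samples, fewer cells with an RNA and less of it per cell cannot be told apart.

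MALAT1 is one of the most abundant nuclear RNAs and gathers in nuclear speckles, the bodies rich in splicing factors. NEAT1 is the scaffold of paraspeckles, bodies that its long form builds together with proteins such as NONO and SFPQ, and a short form of NEAT1 shares the same start. TALAM1 is transcribed from the opposite strand of the MALAT1 locus. MALAT1 and the long form of NEAT1 do not end in a conventional poly(A) tail: RNase P cuts each one just before a tRNA-like sequence, and the new end folds back on U-rich stretches into a triple helix. The short form of NEAT1 is cleaved and polyadenylated in the usual way.

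NEAT1 lies at chr11:65422774-65445540 and MALAT1 at chr11:65497688-65506516, both on the plus strand of GRCh38 in the GENCODE 29 annotation. In RefSeq 52.2 kb lie between the end of NEAT1 and the start of MALAT1. TALAM1 lies at chr11:65499312-65507432 in RefSeq on GRCh38.p14. The stretch that MALAT1 and TALAM1 share runs from 65499312 to 65506516, which is 7205 bases, 88.72% of TALAM1 and 82.07% of the RefSeq MALAT1 gene. The table lists them as ENSG00000251562 for MALAT1, ENSG00000245532 for NEAT1 and ENSG00000289740 for TALAM1. Whether the counting used the strand of the reads is not given in the sources used here, and without strand the reads of MALAT1 and TALAM1 within these 7205 bases cannot be told apart. MIR612, a microRNA gene inside NEAT1, held 1 or 2 counts per library.

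The last 120 bases of MALAT1 and of both forms of NEAT1 are shown because, as said above, these RNAs differ in how they end. The bases were read from GRCh38, chromosome 11, plus strand. No poly(A) signal was searched for, and the end of TALAM1 is not shown. The MALAT1 stretch is chr11:65505997-65506116 and stops at the base before the tRNA-like mascRNA of RefSeq, which covers 58 bases from 65506117 to 65506174. The stretch of the long form of NEAT1 is chr11:65445421-65445540 and that of the short form chr11:65426338-65426457. Capitals mark what the ends of MALAT1 and long NEAT1 have in common: the longest run of bases found in both, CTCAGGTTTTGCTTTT, which is U-rich in RNA, and the last bases of both, AAAAAGCAAAA.
MALAT1: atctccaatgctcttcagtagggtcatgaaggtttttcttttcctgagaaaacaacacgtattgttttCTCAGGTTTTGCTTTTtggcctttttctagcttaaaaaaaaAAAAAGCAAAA
NEAT1 long form: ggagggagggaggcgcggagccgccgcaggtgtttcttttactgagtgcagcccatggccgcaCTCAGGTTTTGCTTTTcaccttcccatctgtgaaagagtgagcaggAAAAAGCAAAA
NEAT1 short form: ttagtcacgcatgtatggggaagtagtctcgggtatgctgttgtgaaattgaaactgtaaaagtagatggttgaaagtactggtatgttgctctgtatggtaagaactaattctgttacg

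MALAT1 and long NEAT1 thus shared a U-rich run of 16 bases and an A-rich end of 11 bases, with 25 bases between them in MALAT1 and 30 in NEAT1. The short form of NEAT1 held neither. In the last 120 bases of the 200764 GENCODE 29 transcripts of at least that length, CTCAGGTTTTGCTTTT occurred in 1 (0.000498%), the long form of NEAT1 itself, counting either strand. AAAAAGCAAAA occurred in 111 (0.0553%) on the transcript's strand and in 195 (0.0971%) on either strand. The 2 runs do not overlap each other. The annotated MALAT1 transcripts were searched at their own annotated ends, which differ from the mature end shown here. The longest stretch of A alone was 13 bases at the MALAT1 end, 5 at the end of long NEAT1 and 4 at the end of short NEAT1. These matches describe the sequence, and the count table has 1 row for both forms of NEAT1.

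The libraries held 33101540 to 43700547 counts each, so that 3 counts, taken as the floor of detection, came to at most 0.0978 counts-per-million (CPM). Levels are given as CPM on library sizes scaled by the trimmed mean of M values (TMM). MCOLN3, the transfected gene, stood at 9.30 to 18.4 CPM in the 6 vector libraries and at 4926 to 58195 CPM in the 6 TRPML3 libraries. The plasmid labels thus held in all of them, with an uneven level among the TRPML3 libraries. In replicates 1, 2 and 3 it was 6208, 4926 and 39952 CPM in TRPML3 fed and 41342, 58195 and 16888 CPM in TRPML3 starved cells. The level of the transfected gene thus differed between serum states, higher on starvation in replicates 1 and 2 and lower in replicate 3. Its part in the starvation and interaction comparisons was not tested. VIM (182 to 585 CPM), NEFM (91.9 to 176), NEFL (64.3 to 97.2) and ENO2 (14.4 to 53.6), genes that HEK293T cells are known to express, were present throughout, PAX2 was low (0.838 to 5.32) and PAX8 at most 0.122. Of 8 markers of blood, fibroblast, endothelial and squamous cells, KRT14 was at 0 in every library, PTPRC, CD3E, DCN, PECAM1, CDH5 and KRT5 stayed below 0.6 CPM, and COL1A1 reached up to 20.6 CPM. The mitochondrial share of the counts followed the replicate number in the labels, at 2.81 to 4.40% in replicates 1, 1.05 to 2.52% in replicates 2 and 4.83 to 5.70% in replicates 3. It is therefore given again beside the results by replicate number.

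MALAT1 had the most counts of the 3 RNAs in every library and varied more than NEAT1. In vector fed cells it stood at 1892, 1563 and 1742 CPM in replicates 1, 2 and 3. In vector starved cells it stood at 417, 1197 and 1590 CPM. In TRPML3 fed cells it stood at 1282, 1206 and 1287 CPM. The fed groups were each tight, whereas the vector starved libraries were spread widely. In TRPML3 starved cells MALAT1 stood at 980, 1466 and 2084 CPM, so that in both starved groups replicate 1 was the lowest library and replicate 3 the highest. The group means were 1732 ± 165 CPM (SD, n = 3) in vector fed, 1510 ± 553 in TRPML3 starved, 1258 ± 45.3 in TRPML3 fed and 1068 ± 597 in vector starved cells. The coefficient of variation was 9.52% in vector fed and 3.60% in TRPML3 fed cells, against 55.9% in vector starved and 36.6% in TRPML3 starved cells. In that order of means, each neighbouring pair of groups overlapped in its libraries. Only the TRPML3 fed group, at 1206 to 1287 CPM, lay wholly below the vector fed group, at 1563 to 1892 CPM.

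**Figure D1:**
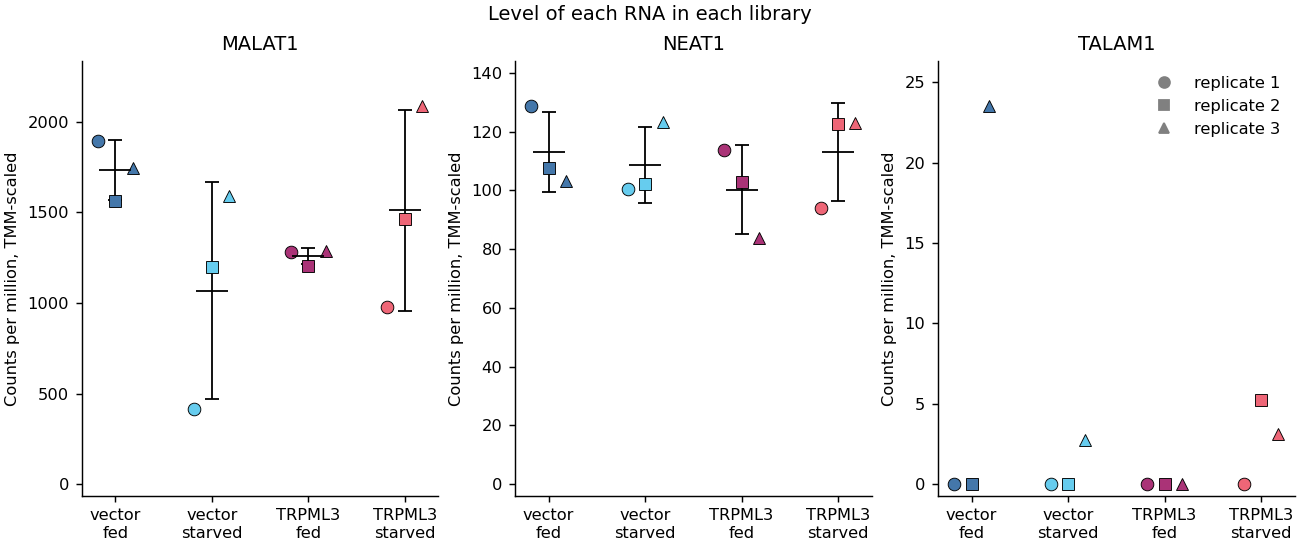
Level of MALAT1, NEAT1 and TALAM1 in each of the 12 libraries, in TMM-scaled CPM on a linear axis that starts at 0 and differs between panels; points are libraries, with their shape giving the replicate number, and horizontal lines with bars give the mean and SD of 3 libraries for MALAT1 and NEAT1. MALAT1 spans 417 to 2084 and is widest in the starved groups, NEAT1 spans 83.8 to 129, and TALAM1 is at 0 in 8 libraries.

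The single library furthest from the rest was vector starved replicate 1. Its 417 CPM of MALAT1 was 2.35-fold below the next lowest library, TRPML3 starved replicate 1 at 980 CPM. MALAT1 ranked 357th among all rows of that library by count and between 30th and 97th in the other 11 libraries. Across genes that library did not stand apart in this way: of 2305 genes with a mean of at least 100 CPM, 10 had their lowest value there by at least 2-fold, and 8 to 18 had it in each of the other libraries. The library's total of 40681820 counts and its mitochondrial share of 3.08% lay within the range of the others. Dixon's gap over range, the distance to the next library over the whole range, was computed for MALAT1. It was 0.529 among the 6 vector libraries and 0.338 among the 6 starved ones. Both lay below the critical value of 0.625, so the library was not flagged as an outlier.

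MALAT1 did not pass the threshold in any comparison. Tests were edgeR quasi-likelihood fits on the 12 libraries, with Benjamini-Hochberg adjustment over all 18030 genes, and a gene was called at an adjusted p below 0.05. In fed cells, TRPML3 against vector gave a log2 fold change of -0.46 ± 0.40 (SE; 95% interval -1.34 to 0.42; unadjusted edgeR p of 0.272, adjusted p = 1). None of the 2 genes tested, MALAT1 and NEAT1, was called, against 0.0111% of all genes, which is 2 of 18030. MALAT1 was lower here in 3 of 3 libraries with no overlap between the groups, a pattern that 698 of the 18030 genes shared in the same direction (3.87%). With the fit restricted to these 6 libraries the fold change was also -0.46, with edgeR giving an adjusted p of 1 from an unadjusted one of 0.00763. Fitted on all 12 libraries, the interval of the difference reached from 0.395 to 1.34 times the vector level. That fit shares 1 estimate of spread over all groups, including the starved ones, in which MALAT1 varied more. Its SE of 0.40 therefore does not describe the fed libraries alone, where the SE was 0.12.

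In starved cells, the difference between TRPML3 and vector had the opposite sign for MALAT1, 0.50 ± 0.40 on the log2 scale (95% interval -0.38 to 1.38; unadjusted edgeR p of 0.237, adjusted p = 1). Across all genes this comparison called 0.00555%, or 1 gene. Between libraries of the same number, TRPML3 differed from vector by 1.23, 0.29 and 0.39 on the log2 scale in starved replicates 1, 2 and 3. In the fed pairs it differed by -0.56, -0.37 and -0.44. The share of all genes with the same sign in all 3 pairs was not counted. What a replicate number stands for is not given in the labels. With the replicate number as a block the starved value was 0.55 ± 0.37 (unadjusted edgeR p of 0.172, adjusted p = 1.00) and the fed value -0.47 ± 0.36 (unadjusted edgeR p of 0.229, adjusted p = 1). The block used the same term for a replicate number in fed and starved cells, although same-numbered libraries did not deviate together between serum states. Without the block, the starved value was 0.12 without vector starved replicate 1 and 0.90 without vector starved replicate 3.

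Serum starvation was compared next, within each plasmid. In vector cells MALAT1 gave -0.70 ± 0.40 on the log2 scale (95% interval -1.58 to 0.19; unadjusted edgeR p of 0.11, adjusted p = 0.9998), where 0.00555% of all genes (1) were called. Without vector starved replicate 1 this came to -0.31, and without vector starved replicate 3 to -1.10. On TMM-scaled levels the vector starved libraries overlapped the vector fed ones by a narrow margin, with their highest library at 1590 CPM against a lowest fed library at 1563 CPM. On CPM of the plain library sizes they ran from 419 to 1617 CPM in starved and from 1668 to 2024 CPM in fed cells. Whether the libraries overlapped thus depended on the scaling, and the share of all genes without overlap was not counted for starvation. In TRPML3 cells the starvation difference was 0.26 ± 0.40 (95% interval -0.62 to 1.14; unadjusted edgeR p of 0.522, adjusted p = 0.976), and 0% of genes were called at the threshold. Without TRPML3 starved replicate 3 it was -0.05.

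The starvation differences in the vector and TRPML3 cells pointed in opposite directions for MALAT1, and the difference between them was tested as an interaction. It came to 0.96 ± 0.56 (95% interval -0.28 to 2.21; unadjusted edgeR p of 0.117, adjusted p = 0.9999), with 0% of genes called. Without vector starved replicate 1 the interaction was 0.58, and without vector starved replicate 3 it was 1.36. Averaged over both plasmids, starvation gave -0.22 ± 0.28 for MALAT1 (95% interval -0.84 to 0.40; unadjusted edgeR p of 0.457, adjusted p = 0.868), again with 0% of genes called. Averaged over both serum states, TRPML3 gave 0.02 ± 0.28 (95% interval -0.60 to 0.64; unadjusted edgeR p of 0.947, adjusted p = 0.9999), with 0.0111% of genes (2) called. With plain library sizes in place of TMM the average TRPML3 value turned to -0.07, and without replicates 1 in all groups the average starvation value turned to 0.13. The 7 comparisons use the same libraries more than once and are not independent of each other. Where edgeR called no gene of the whole table, an unadjusted p under 0.05 was reached by 1030 genes in the starved against fed TRPML3 cells, by 374 in the interaction and by 1704 in the average over plasmids. The DESeq2 Wald test called 88, 27 and 287 genes there, and limma on the deposited normalized values called 0 in each. MALAT1 and NEAT1 were among none of the DESeq2 or limma calls in any comparison.

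**Figure D2:**
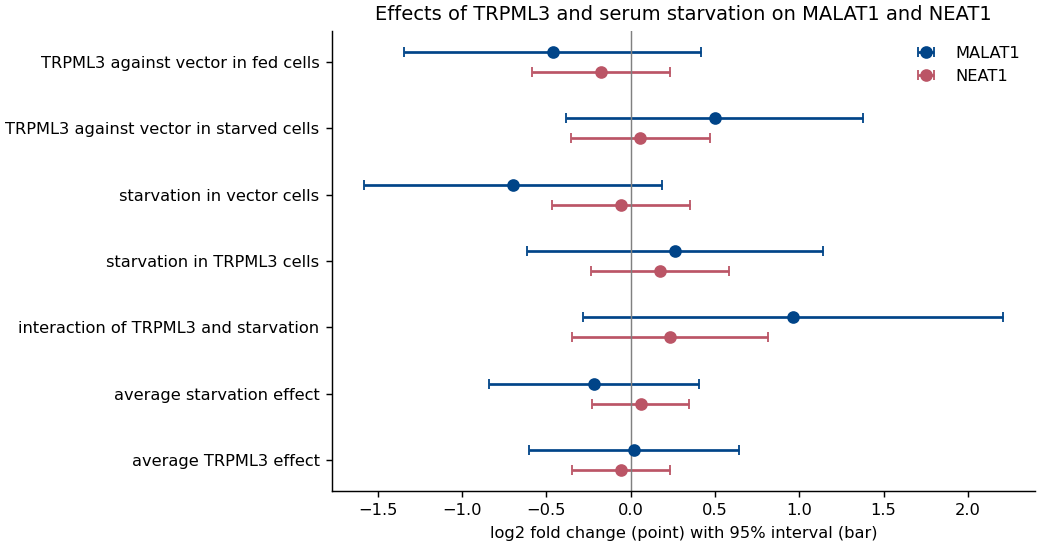
Log2 fold change of MALAT1 and NEAT1 in the 7 comparisons (points) with 95% intervals from edgeR's quasi-likelihood fit (bars) on a linear log2 axis. Every interval contains 0, and the intervals of MALAT1 are wider than those of NEAT1 in each comparison.

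NEAT1 had fewer counts than MALAT1 in every library and varied little. In vector fed cells it stood at 129, 108 and 103 CPM in replicates 1, 2 and 3, and in vector starved cells at 100.4, 102 and 123 CPM. In TRPML3 fed cells it stood at 114, 103 and 83.8 CPM, and in TRPML3 starved cells at 94.0, 123 and 123 CPM. All 4 groups overlapped, the highest library being vector fed replicate 1 and the lowest TRPML3 fed replicate 3, a 1.53-fold range against 4.99-fold for MALAT1. The group means were 113 ± 13.6 CPM (SD, n = 3) in vector fed, 113 ± 16.6 in TRPML3 starved, 109 ± 12.8 in vector starved and 100.2 ± 15.2 in TRPML3 fed cells, and no neighbours in that order differed beyond their spread.

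For NEAT1 every interval contained 0 and was narrower than that of MALAT1. TRPML3 against vector gave -0.17 ± 0.19 in fed cells (95% interval -0.58 to 0.24; edgeR adjusted p = 1) and 0.06 ± 0.19 in starved cells (-0.35 to 0.47; edgeR adjusted p = 1). Starvation gave -0.06 ± 0.19 in vector cells (-0.47 to 0.35; edgeR adjusted p = 0.9998) and 0.18 ± 0.19 in TRPML3 cells (-0.23 to 0.58; edgeR adjusted p = 0.968). The intervals of these 4 comparisons ran from 0.667 to 1.50 times the level of the reference group. The interaction was 0.23 ± 0.26 (-0.35 to 0.81; edgeR adjusted p = 0.9999). The average starvation effect was 0.06 ± 0.13 (-0.23 to 0.35; edgeR adjusted p = 0.942) and the average TRPML3 effect -0.06 ± 0.13 (-0.35 to 0.23; edgeR adjusted p = 0.9999). With plain library sizes the value for TRPML3 in starved cells turned to -0.05 and the average starvation effect to -0.01.

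The spread of both RNAs can be set against that of other genes. Over the 12 libraries the SD of log2 CPM was 0.60 for MALAT1, above that of 82.8% of the 2305 genes with a mean of at least 100 CPM, whose median was 0.31. For NEAT1 it was 0.18, above that of 20.1% of these genes. Within groups the SD was 0.58 for MALAT1 (above 82.0%) and 0.20 for NEAT1 (above 25.8%), with a median of 0.30. The value for MALAT1 rested on vector starved replicate 1: without that library, a comparison added after the values were seen, its SD was 0.32, above that of 51.7% of these genes, with a median of 0.32. Beside the 152 genes within 2-fold of its own mean level, MALAT1 lay above 86.2% of them with all libraries and above 68.4% without that one. NEAT1 had an SD of 0.19 without that library (above 20.6%), and beside the 3316 genes within 2-fold of its mean level it lay above 13.3% with all libraries and above 13.9% without that one.

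Per replicate number, MALAT1 averaged 1143 ± 615 CPM (SD, n = 4, range 417 to 1892) in replicates 1, 1358 ± 185 (1197 to 1563) in replicates 2 and 1676 ± 331 (1287 to 2084) in replicates 3. The 3 sets of libraries overlapped, and a test of the replicate number with the groups kept in the model gave an edgeR p of 0.179 (adjusted p = 0.786). In that test 0% of the 18030 genes were called, and 1523 had an unadjusted p under 0.05. NEAT1 averaged 109 ± 15.4, 109 ± 9.46 and 108 ± 18.9 CPM in replicates 1, 2 and 3 (edgeR adjusted p = 0.9997). The mitochondrial share differed between these sets with no overlap, as given above, and its correlation with MALAT1 is given next.

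Over the 12 libraries, the levels of MALAT1 and NEAT1 were related by rank, while their linear correlation did not pass the threshold. Pearson's r of their log2 CPM was 0.487 (permutation p = 0.129, adjusted over 3 relations 0.388) and Spearman's rho was 0.755 (permutation p = 0.00582, adjusted 0.0175). Without the 2 libraries furthest from the MALAT1 median, TRPML3 starved replicate 3 and vector starved replicate 1, r was 0.617 (permutation p = 0.0582), and without vector starved replicate 1 alone it was 0.661 (permutation p = 0.0259). These relations were computed after the values had been seen, and both levels share the library and its scaling. The permutations exchanged all 12 libraries freely, without regard to group or replicate number. MALAT1 and the mitochondrial share gave r = 0.313 (permutation p = 0.355, adjusted 0.532) and rho = 0.531 (permutation p = 0.08, adjusted 0.12), and r = 0.0695 without the 2 libraries with the furthest mitochondrial shares. NEAT1 and the mitochondrial share gave r = 0.0739 (permutation p = 0.817, adjusted 0.817) and rho = 0.203 (permutation p = 0.527, adjusted 0.527), and r = -0.0273 without those 2. Each replicate number holds only 4 libraries, too few for a value within it.

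**Figure D3:**
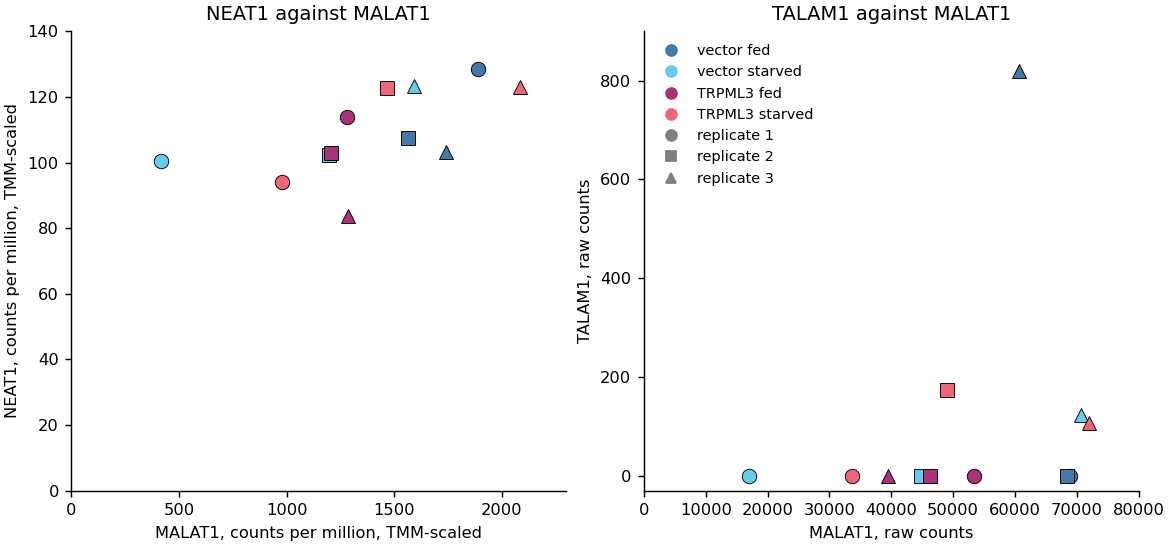
Left, NEAT1 against MALAT1 in TMM-scaled CPM; right, raw counts of TALAM1 against raw counts of MALAT1, each point 1 of the 12 libraries, with colour for the group and shape for the replicate number, on linear axes. At the left, vector starved replicate 1 is the lowest at 417 for MALAT1 with 100.4 for NEAT1. At the right, TALAM1 is at 0 in 8 libraries with 17051 to 68943 MALAT1 counts. It is above 0 in 4 libraries with 48960 to 72023 MALAT1 counts.

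The ratio of the RNAs within a library does not depend on scaling. MALAT1 had 14.7, 14.5 and 16.9 counts per NEAT1 count in vector fed replicates 1, 2 and 3, and 4.16, 11.7 and 12.9 in vector starved cells. In TRPML3 fed cells it had 11.3, 11.7 and 15.4, and in TRPML3 starved cells 10.4, 12.0 and 17.0. In every group replicate 3 had the highest ratio, and vector starved replicate 1 was again the only library below 10. Since MALAT1 and NEAT1 differ in length, their levels were also set per kilobase. With the 8708 bases of transcript MALAT1-202, MALAT1 stood at 159.9 ± 50.7 CPM per kb (SD over 12 libraries, 47.9 to 239). NEAT1 stood at 31.6 ± 3.96 CPM per kb (24.4 to 37.4) if all its counts came from the short form of 3441 bases, and at 4.78 ± 0.60 (3.69 to 5.66) with the 22743 bases of the long form. Per length, MALAT1 was therefore a median of 4.91-fold (1.64 to 6.70) above NEAT1 on the short length and 32.4-fold (10.9 to 44.3) on the long one. These ratios hold for RNA recovered by poly(A) enrichment, and these RNAs differ in how they end. How well each RNA was recovered was not measured, so they are not ratios of abundance in the cell.

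TALAM1 was counted in 4 of the 12 libraries and was at 0 in the other 8. Vector fed cells had 0, 0 and 819 counts in replicates 1, 2 and 3, and vector starved cells 0, 0 and 123. TRPML3 fed cells had 0 in all 3 libraries, and TRPML3 starved cells 0, 174 and 107. The groups other than TRPML3 fed thus each held at least 1 library with TALAM1 and at least 1 without. The widest range inside a group, 0 to 23.5 CPM in vector fed cells, came from 1 library. As levels, the 4 libraries with TALAM1 stood at 23.5 CPM in vector fed replicate 3, 2.77 in vector starved replicate 3, 5.21 in TRPML3 starved replicate 2 and 3.10 in TRPML3 starved replicate 3. By replicate number, TALAM1 was above 0 in 0 of 4 libraries numbered 1, in 1 of 4 numbered 2 and in 3 of 4 numbered 3. The libraries numbered 3 were also those with the highest mitochondrial share, and the part of that in TALAM1 was not tested.

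Beside MALAT1, its antisense partner on the same stretch of chromosome, TALAM1 was a small share at most. In vector fed replicate 3 it made up 1.33% of the counts of MALAT1 and TALAM1 together (Wilson 95% interval 1.24 to 1.42%). The share was 0.354% (0.305 to 0.411%) in TRPML3 starved replicate 2, 0.174% (0.146 to 0.207%) in vector starved replicate 3 and 0.148% (0.123 to 0.179%) in TRPML3 starved replicate 3. These intervals and the limits below cover counting error only. The highest share was that of vector fed replicate 3. MALAT1 had 74.2 counts per TALAM1 count in vector fed replicate 3, 281 in TRPML3 starved replicate 2, 575 in vector starved replicate 3 and 673 in TRPML3 starved replicate 3.

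In the 8 libraries with no TALAM1 count, MALAT1 held 17051 to 68943 counts, so the floor of 3 counts corresponds to a TALAM1 share of up to 0.00435% in the library with the most MALAT1 and up to 0.0176% in the one with the least. The Wilson upper bounds at a count of 0 are 0.00557% and 0.0225% in these libraries. These limits hold for reads given to TALAM1 in the table, since without strand a read of TALAM1 could have been given to MALAT1. In vector fed cells, replicates 1 and 2, with 68943 and 68433 MALAT1 counts, had no TALAM1 count, while replicate 3, with the fewest at 60726, had 819. In the starved groups the libraries with TALAM1 were those with the most MALAT1: 70685 counts in vector starved replicate 3 against 17051 and 44785, and 48960 and 72023 in TRPML3 starved replicates 2 and 3 against 33581. Over all libraries, those with TALAM1 held 48960 to 72023 MALAT1 counts, or 1466 to 2084 CPM, against 417 to 1892 CPM in those without, so that the ranges overlapped. Adding the TALAM1 counts to those of MALAT1 left the MALAT1 results nearly as they were, with log2 fold changes of -0.47 and 0.50 for TRPML3 in fed and starved cells and of -0.70 and 0.27 for starvation in vector and TRPML3 cells. None of these passed the threshold.

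A row that is present in some libraries and at exactly 0 in most was rare. Of 13535 rows that reached at least 100 counts in a library, 20 (0.148%) were at 0 in at least 8 libraries, and TALAM1 was picked for being of this kind. Of these, 7 reached at least 500 counts, and they are named here after their values were seen: TALAM1, CCN2, FMC1-LUC7L2, HSPE1-MOB4, LMOD1, PPAN-P2RY11 and SRGAP2D. FMC1-LUC7L2, HSPE1-MOB4 and PPAN-P2RY11 are readthrough genes whose exons overlap those of the genes they join, and SRGAP2D is a near-identical partial copy of SRGAP2. For those 4 rows, and for TALAM1 over the 7205 bases it shares with MALAT1, a second gene covers the same or nearly the same sequence. Whether this bears on the zeros was not tested, and the other rows of the 20 were not looked at in this way. CCN2 encodes a secreted matrix-associated protein and LMOD1 an actin-binding protein of smooth muscle.

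The genes whose log2 CPM went most closely with each RNA over the 12 libraries, among 14126 genes with a mean of at least 1 CPM, were listed by Pearson's r as a description. For MALAT1 they were FNDC5 (r = 0.917), WEE1, a kinase that holds back entry into mitosis (0.910), and DLX6-AS1, a long RNA antisense to a homeobox gene (0.895). Without vector starved replicate 1 these fell to 0.628, 0.792 and 0.880, so the likeness of FNDC5 rested largely on that library. With group means taken away, the closest were FNDC5 (0.957), ZNF862 (0.949) and ZNF277 (0.947), and without that library, with the group means taken anew, these came to 0.840, 0.900 and 0.826. For NEAT1 the closest were PYGM, the muscle glycogen phosphorylase (0.913), SNHG5, a host RNA of small nucleolar RNAs (0.911), and the ribosomal protein pseudogene RPL24P8 (0.900), each unchanged to within 0.01 without vector starved replicate 1. With group means taken away they were SMIM10 (0.948), ASGR1 (0.935) and RPL24P8 (0.932). For TALAM1 they were TMPRSS9 (0.897), NDRG2 (0.895) and CCDC30 (0.880), and with group means taken away NDRG2 (0.962), CCDC30 (0.912) and RMRP, the RNA of RNase MRP (0.900). With TALAM1 at 0 in 8 libraries these last values rest on the other 4, and all values of r given here were taken as the highest of 14126.

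The proteins of the bodies that hold MALAT1 and NEAT1, the factors that process them, other long RNAs and the gene neighbours were read from 6 lists, of which edgeR called no gene in any of the 7 comparisons. Tested were 16 of 18 nuclear RNAs, 12 of 13 symbols of cytoplasmic RNAs, 14 of the 16 neighbours in the table and every gene of the other 3 lists. For the average starvation effect, the paraspeckle proteins, found in the bodies that NEAT1 builds, had a median log2 fold change of 0.08 with 16 of 26 above 0 and 1 at an unadjusted p under 0.05. The nuclear speckle proteins, found in the bodies where MALAT1 gathers, had a median of 0.17 with 19 of 25 above 0 and 5 at an unadjusted p under 0.05. All genes tested had a median of 0.01, with 50.7% above 0 and 9.45% at an unadjusted p under 0.05. The factors that cut, process or degrade MALAT1 and NEAT1 had a median of 0.12, with 15 of 23 above 0 and 5 at an unadjusted p under 0.05. Other nuclear or chromatin-bound long RNAs had 0.14 (12 of 16 above 0; 1), mainly cytoplasmic long RNAs 0.12 (9 of 12; 0) and the gene neighbours at 11q13 0.17 (9 of 14; 4). All 6 medians lay above 0, those of the cytoplasmic RNAs and of the neighbours included.

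By the smallest p for starvation, the paraspeckle list was led by DAZAP1, an RNA-binding protein, at 0.38 ± 0.11 on the log2 scale (edgeR adjusted p = 0.363), from 95.8 to 127 CPM over the fed libraries and 120 to 144 over the starved ones. Second was ZNF335 at 0.66 ± 0.39 (adjusted p = 0.649). In the speckle list PNISR, a protein rich in serine and arginine, gave -0.71 ± 0.20 and the splicing factor SRSF3 gave 0.38 ± 0.11, both at an edgeR adjusted p of 0.363. SRSF3 stood at 1327 to 1942 CPM in the fed and 1957 to 2374 CPM in the starved libraries. It was picked by its small p, and the share of all genes without overlap on starvation was not counted. Among the processing factors, EXOSC10, a catalytic subunit of the nuclear exosome, gave 1.00 ± 0.27 (edgeR adjusted p = 0.357). It stood at 61.2 ± 16.0 CPM in vector fed against 123 ± 13.3 in vector starved cells (SD, n = 3). In TRPML3 cells it stood at 67.3 ± 42.1 CPM fed and 134 ± 14.9 CPM starved. Over both plasmids the fed libraries, at 32.0 to 113.9 CPM, just overlapped the starved ones, at 113.8 to 150.6 CPM. ZFC3H1, which links polyadenylated nuclear RNA to the exosome, gave -0.33 ± 0.10 (edgeR adjusted p = 0.367). DESeq2, which called 1.81% of all genes on average starvation (287 of the 15863 it gave an adjusted p), called DAZAP1 and EXOSC10 as higher and ZFC3H1 as lower, and none of the speckle proteins.

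Among the other lists, MIR17HG, the host RNA of a microRNA cluster, gave 0.77 ± 0.29 (edgeR adjusted p = 0.458) and MIAT, another RNA of nuclear bodies, -1.57 ± 0.74 (adjusted p = 0.55) at a level under 1.5 CPM in every library. EPB41L4A-AS1 gave 0.30 ± 0.14 (edgeR adjusted p = 0.557) and SNHG5, the RNA most like NEAT1 but for PYGM, 0.14 ± 0.13 (adjusted p = 0.809). At 11q13, KCNK7 gave 1.15 ± 0.41 (edgeR adjusted p = 0.427) and EHBP1L1 1.26 ± 0.47 (adjusted p = 0.443), while MALAT1 in the same comparison gave -0.22 and NEAT1 0.06. The average TRPML3 effect had medians of 0.02 for paraspeckle proteins, 0.05 for speckle proteins, 0.07 for processing factors, -0.20 for nuclear RNAs, -0.03 for cytoplasmic RNAs and 0.05 for the neighbours, against -0.01 for all genes. The cytoplasmic RNAs had 1 of 12 above 0 for TRPML3 in fed cells and 10 of 12 in starved cells, with all genes at 48.9% and 49.2%. These counts were picked out after the values of the lists were seen. None of the 12 RNAs had an unadjusted edgeR p under 0.05 in either comparison. Across the other comparisons DESeq2 called 1 gene each in 2 of the lists, named here after their values were seen. The paraspeckle gene HNRNPM was called lower for the average TRPML3 effect, where 0.161% of all genes (29) were called. The neighbour ZNRD2 was called higher with TRPML3 in fed cells (0.167% of all genes, 30), lower on starvation in TRPML3 cells (0.49%, 88) and lower for the interaction (0.15%, 27).

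**Figure D4:**
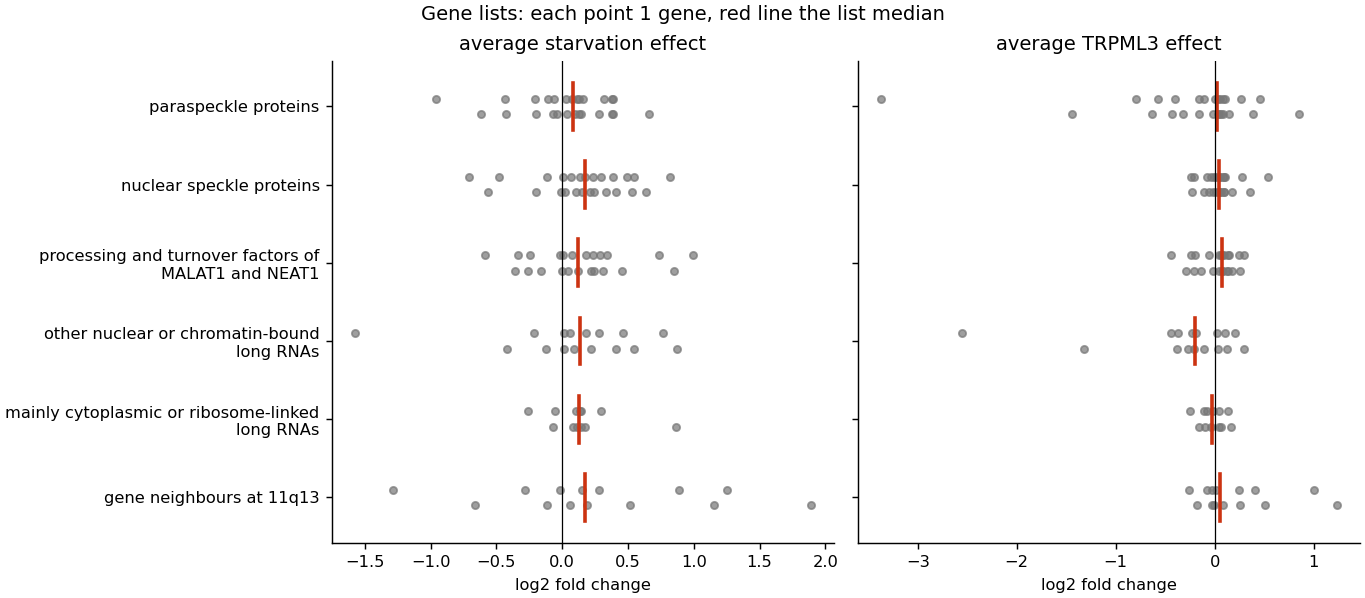
Log2 fold change of each tested gene of the 6 lists (grey points, spread in height for legibility) for the average starvation effect at the left and the average TRPML3 effect at the right, with red lines at the list medians and a black line at 0. The starvation medians lie between 0.08 and 0.17 and the TRPML3 medians between -0.20 and 0.07, and no gene passed an adjusted p of 0.05 in edgeR.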

How the data were processed

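Poly(A)-enriched RNA of 12 HEK293T samples was sequenced. The authors deposited whole-number counts per gene; the submitters' processing notes name GRCh38, FastQC, fastp, HISAT2, StringTie and DESeq2, without role or version, and whether the counts are direct or rounded estimates is not given in the sources used here. A second deposited table holds normalized signal values for 23252 rows, each the raw count divided by 1 factor per library (spread within a library at most 9.8e-08%). Groups came from the sample titles.

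Counts were analysed in R 4.3.3 with edgeR 4.0.16 (TMM, filterByExpr, robust quasi-likelihood fit, 1 coefficient per group, 8 residual degrees of freedom) and Benjamini-Hochberg adjustment over 18030 genes. SEs are the log2 fold change over the square root of F, and intervals are approximate. DESeq2 1.42.0 and limma 3.58.1 (log2 of normalized value plus 1) were alternatives, with other scaling, filters, a replicate block, summed MALAT1 and TALAM1 counts, and libraries left out. The scripts were tested on simulated data. No pair of libraries agreed within sampling noise (chi-square per degree of freedom at least 139 over 66 pairs).

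Named genes were the 3 members, MCOLN3, the 3 most similar genes of each member by 2 measures, and from each list any gene called or else the 2 with the smallest starvation p; others are marked as chosen after their values were seen. The members and lists were chosen with earlier results of these data known. Same-numbered libraries deviated together between plasmids in fed cells (r = 0.112, 0.145 and 0.326 over genes) and, except for 1 pair, by more than 0.1 in starved cells (0.131, 0.0949 and 0.316), but not between serum states (-0.0757 to 0.00748). The labels do not say what a number stands for. Correlation p-values used 100000 permutations, two-sided. Motifs were searched by a script in GENCODE 29 transcripts. One marker gene is not reported here.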

Additional observations from a re-analysis of the deposited data

How the results depend on the processing

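Over 371 alternatives of the MALAT1 and NEAT1 tests, none brought a result past the threshold. Of the 337 that have a direction, 320 kept it and 17 reversed it; the other 34 are of the test of replicate number. Scaling by library size only gave -0.048 for NEAT1 with TRPML3 in starved cells, -0.011 for the average starvation effect on NEAT1 and -0.072 for the average TRPML3 effect on MALAT1. Leaving out 1 library, or 1 replicate number in all groups, turned the sign of the following, given as lowest to highest. NEAT1 with TRPML3 in starved cells ran from -0.0147 to 0.174 without single libraries and from -0.0561 to 0.118 without replicate numbers, and with starvation in vector cells from -0.156 to 0.0459 and from -0.207 to 0.0919. MALAT1 with starvation in TRPML3 cells ran from -0.0512 to 0.494 and from -0.0178 to 0.51. The average TRPML3 effect ran from -0.171 to 0.222 and from -0.0359 to 0.0695 for MALAT1, and from -0.108 to 0.00103 and from -0.138 to -0.00691 for NEAT1. The average starvation effect kept its sign without single libraries but ran from -0.55 without replicates 3 to 0.128 without replicates 1 for MALAT1, and from -0.101 to 0.243 for NEAT1. The cause of these reversals was not tested.

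The values that kept their sign ran, without single libraries or replicate numbers, from -0.53 to -0.39 for MALAT1 with TRPML3 in fed cells, from 0.12 to 0.90 in starved cells, from -1.10 to -0.25 with starvation in vector cells and from 0.58 to 1.36 for the interaction. For NEAT1 they ran from -0.27 to -0.059 with TRPML3 in fed cells, from 0.0049 to 0.39 with starvation in TRPML3 cells and from 0.12 to 0.35 for the interaction. With the replicate number as a block, MALAT1 gave -0.84 for starvation in vector cells (edgeR adjusted p = 0.954) and 1.02 for the interaction, and no call changed for MALAT1 or NEAT1. Over all genes the average starvation effect called 0 genes with all libraries and 810 without replicates 3, MALAT1 and NEAT1 not among them. The correlation of NEAT1 with the mitochondrial share turned to -0.0273 without 2 libraries. TALAM1 shares from the normalized values equalled those from counts. The SD of log2 CPM of MALAT1 moved from 0.60 to 0.32 without vector starved replicate 1. Restricting the fit to the 6 libraries compared changed the SE of MALAT1 with TRPML3 in fed cells from 0.40 to 0.12. The fit on all 12 libraries shares 1 estimate of spread with the starved groups, in which MALAT1 varied more.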
